A study of Mus musculus with 24 samples.

Results

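The injured and uninjured sides of the hippocampus were compared in mouse pups lacking Neil2. The comparison took the 8 libraries whose sample titles name Neil2-KO, of 24 in the series: 4 from the ipsilateral side, the injured side in hypoxia-ischemia, and 4 from the contralateral side, with 3 h and 6 h analysed together and time as a blocking factor. Pups were at postnatal day 10, and every group, the contralateral one included, came from animals that had undergone hypoxia-ischemia (HI). The 4 Neil2-KO groups were contralateral 3 h, ipsilateral 3 h, contralateral 6 h and ipsilateral 6 h, each with 2 libraries numbered 1 and 2. The other 16 libraries, 8 from wild-type (WT) and 8 from labelled Neil1-KO pups with the same sides and times, did not enter the main fit of the side effect. They served to ask whether that effect differed by genotype, to check the labels, to set which genes were tested, and in alternative fits. Groups follow the titles, because the genotype tag of the Neil2-KO libraries reads NEIL1-KO. The labels do not give the deleted part of the gene, the strain, the sex, whether the deletion is restricted to a cell type, or whether the hours count from the start or the end of HI. No library from an animal without HI enters the comparison, so a change on both sides alike would not be seen.

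Neil2 encodes a DNA glycosylase, an enzyme that cuts oxidized bases out of DNA and starts base excision repair, with a known preference for single-stranded and bubble DNA as found at transcribed genes. HI lowers oxygen and glucose supply mainly in one hemisphere, and the energy failure that follows is known to release glutamate, depolarize neurons, unfold proteins and activate glia. Immediate early genes, heat shock genes and chemokines are textbook early responders, while transcripts of synapses and of resting microglia often decline in injured tissue.

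The table gave normalized read counts, which are reads divided by a size factor per library, and these are the values printed here. Differences are log2 fold changes of value + 1, ipsilateral minus contralateral, and a gene was called when limma's moderated test gave a Benjamini-Hochberg adjusted p under 0.05 over 18364 genes. Depth in the Neil2-KO libraries ran from 18381389 to 29252067 reads. Neil2 itself lay between 0 and 3.02 in the 8 Neil2-KO libraries and between 15.2 and 27.8 in the WT libraries. Summed over libraries and corrected for depth, Neil2 reads in Neil2-KO were 5.25% of those in WT (95% exact interval 2.36% to 10.2%), so the titles and not the genotype tags match the transcript. Neil1, in contrast, lay between 91.6 and 155 in the labelled Neil1-KO libraries and between 56.8 and 123 in WT, so its label is not borne out by transcript level. The first principal component held 50.9% of the variance and separated all 4 ipsilateral from all 4 contralateral Neil2-KO libraries. The second held 12.8% and set contralateral 6 h replicate 2 apart. The animal of replicate 2 at 6 h had Xist at 7604 and 10112 on its sides against 3.72 to 14.2 in the other 6 libraries, and the part of sex in any difference was not tested. Ttr, the main choroid plexus transcript, was 29075 in contralateral 6 h replicate 1 and 26783 in ipsilateral 3 h replicate 2 against 212 to 3128 elsewhere.

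The injured side differed widely from the other: 5247 genes were called, 28.6% of those tested, with 2402 (13.1%) higher and 2845 (15.5%) lower ipsilaterally. The increases were the larger ones, with 750 genes at least 2-fold higher and 138 at least 2-fold lower. In 5057 of the called genes all 4 same-numbered pairs moved the same way, and in 4331 the 4 ipsilateral values did not overlap the 4 contralateral ones, a separation seen in 27.8% of all genes tested. All 5247 had the same sign at 3 h and at 6 h. Genes were called on these same libraries, so the shared signs follow in part from the call and are no separate support. The median log2 fold change over all genes tested was 0.01. With the sides of each animal paired as a block, 4704 genes (25.6%) were called, 2213 (12.1%) higher and 2491 (13.6%) lower. Without contralateral 6 h replicate 2, the library that stood apart, 4659 genes were called, 1996 higher and 2663 lower, and no list count above 2 given here moved by more than 1.5 times. Without both libraries of its animal, the counts lower fell to 2 of 24 for hypoxia and glycolysis and to 1 each for p53 and cell death and for oligodendrocyte markers, and the counts higher fell to 2 for neurotrophins, 2 for base excision repair and 6 for clock genes, from the values given with each list.

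The 12 largest increases were taken among called genes with a mean of at least 50 over the 8 libraries and no overlap between sides. They were the chemokines Ccl4, Ccl3, Ccl2, Ccl7 and Cxcl10, the cytokine Il1a, the stress-induced transcription factor Atf3 and secreted factor Gdf15. The others were the matricellular protein Ccn1, the mRNA-decay factor Zfp36, and the inducible heat shock genes Hspa1a and Hspa1b. Those chemokines, Il1a and Gdf15 passed that mean only through the ipsilateral side, with contralateral means from 2.37 to 7.22. Their rank therefore depends on low contralateral counts and on the 1 added to each value. The 12 largest decreases were the glutamate receptor subunits Grin2a and Grin2b, the synaptic kinase Camk2a, the plasma membrane calcium pump Atp2b1, the microglial genes Tmem119 and P2ry13, the lipid kinase subunit Pik3cg, the growth factors Bmp3 and Inhba, and Thsd4, Lct and Sult1a1.

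**Figure D1:**
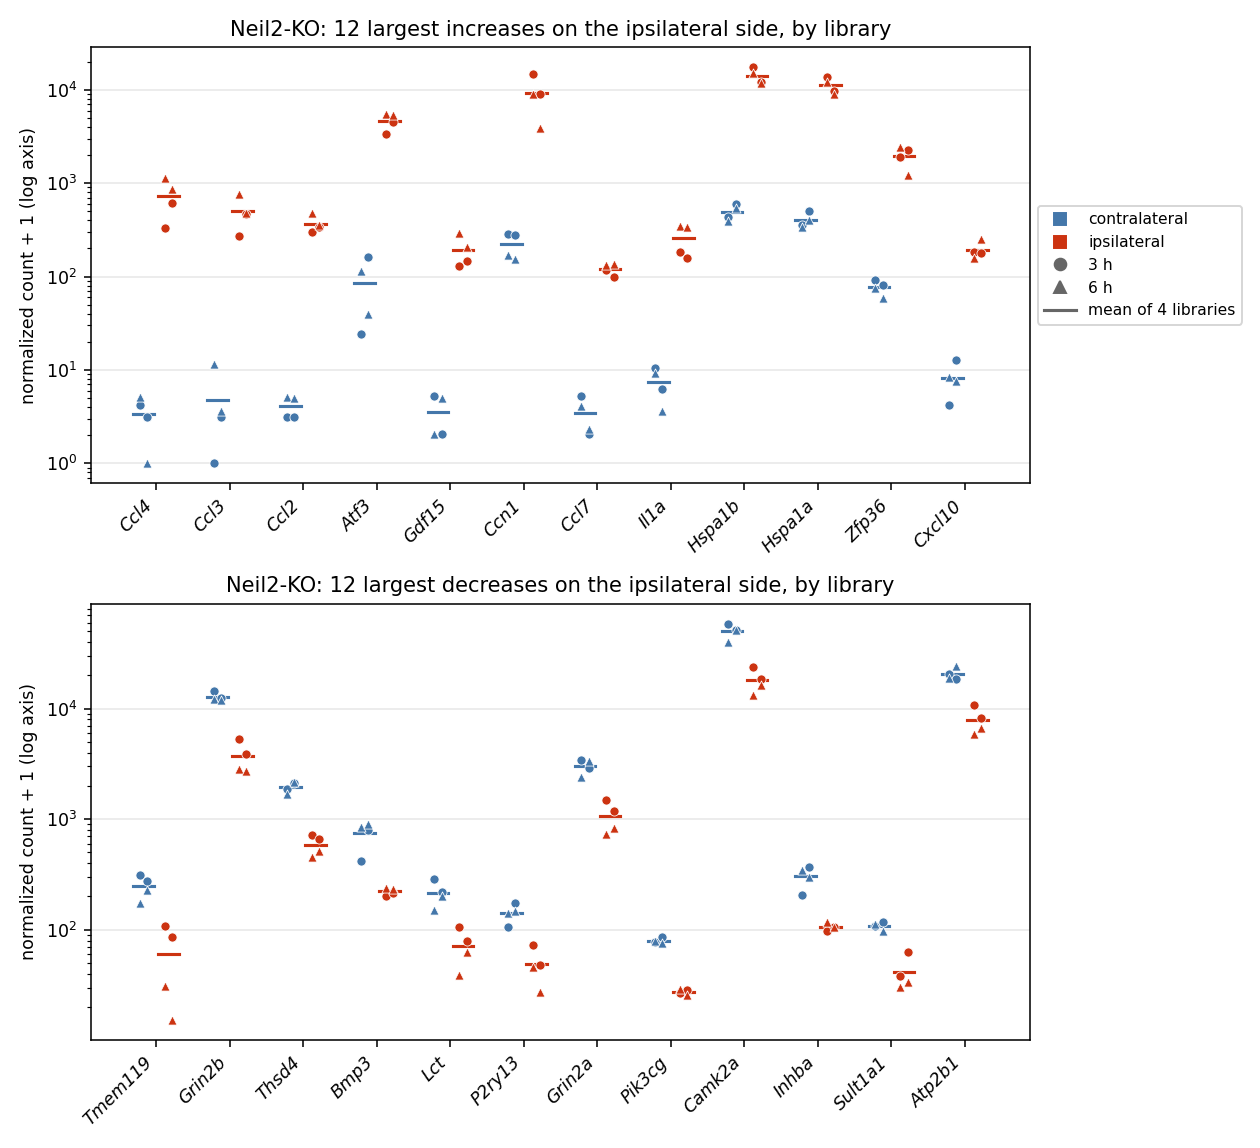
Normalized count + 1 (log axis) of the 12 genes with the largest increase (top) and the 12 with the largest decrease (bottom) in each of the 8 Neil2-KO libraries; circles are 3 h, triangles 6 h, and bars the mean of 4 libraries. All 24 genes were picked for having no overlap between ipsilateral and contralateral values, and Tmem119 is lowest in the 2 ipsilateral libraries of 6 h.

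Chemokines gave the largest increases, several of them from a few reads per library. Of the 12 chemokines tested, 10 were called higher and 1 lower, with a median log2 fold change of 3.94. Ccl4, which draws monocytes and lymphocytes, stood at 3.17 and 2.13 at 3 h and 4.2 and 0 at 6 h contralaterally, and at 332 and 614 at 3 h and 1134 and 856 at 6 h ipsilaterally. Every ipsilateral library was far above every contralateral one, and the 6 h libraries were the highest. The log2 fold change was 7.86 ± 0.49 (SE, limma adjusted p = 1.44e-06), and summed reads went from 9 to 3434, a depth-corrected ratio of 291 (95% exact interval 153 to 638, counting error only).

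Ccl2, the main monocyte chemoattractant acting on CCR2, read 2.11, 2.13, 4.2 and 3.99 contralaterally and 299, 335, 475 and 360 ipsilaterally, in the order 3 h replicates 1 and 2, then 6 h replicates 1 and 2, the order used for all values that follow. Its ipsilateral values spread little around their mean and none came near a contralateral one (log2 fold change 6.51 ± 0.20, limma adjusted p = 4.43e-09). Ccl3, a CCR1 ligand, went from 0, 2.13, 10.5 and 2.66 to 270, 469, 770 and 483. The sides did not overlap, although contralateral 6 h replicate 1 was above its neighbours, and the change was 7.11 ± 0.44 (limma adjusted p = 1.44e-06). Cxcl10, an interferon- and NF-kB-inducible ligand of CXCR3, was 3.17, 11.7, 7.34 and 6.64 against 180, 180, 155 and 253, a change of 4.64 ± 0.31 (limma adjusted p = 2.15e-06). Cxcl2, a neutrophil chemoattractant, had no read in the 4 contralateral libraries and 85 in the ipsilateral ones, at least 21.6-fold higher against a floor of 3 counts over the group (the exact 95% lower limit of the read ratio was 17.2), and with it at that bound the chemokine median was 4.12. Ccl7, Ccl9, Ccl12, Cxcl1 and Cxcl16 were also called higher. The exception was Cx3cl1, the neuronal ligand of the microglial receptor Cx3cr1, which fell by 0.72 on the log2 scale: it was 15060, 14572, 12236 and 14643 contralaterally and 10570, 9057, 7025 and 7955 ipsilaterally, with no overlap.

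Cytokines of the interleukin-1, TNF and interleukin-6 families followed, with 17 of 20 tested called higher, 1 lower, and a median of 1.64. Il1a, an alarmin that signals through Il1r1, rose from 9.50, 5.33, 8.39 and 2.66 to 185, 157, 348 and 336. The 6 h ipsilateral libraries lay above the 3 h ones, and the overall change was 5.13 ± 0.36 (limma adjusted p = 2.70e-06). Il1b, its inflammasome-processed relative, was 0, 1.07, 3.15 and 2.66 against 11.9, 29.3, 140 and 126, with all ipsilateral values higher and those of 6 h the highest (4.44 ± 0.42). Tnf was 1.06, 3.20, 2.10 and 0 against 17.9, 22.7, 64.1 and 48.2, a depth-corrected read ratio of 22.9 (95% exact interval 10.3 to 63.3). Il6 had only 3 contralateral reads and 83 ipsilateral ones, a ratio of 21.1 (6.99 to 105). The natural antagonist Il1rn (4.79) and the feedback inhibitor of JAK-STAT signalling Socs3 (4.08) rose with them, and the receptor Lifr was the 1 member lower (-0.61).

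NF-kB, the transcription factor downstream of these cytokines, induces its own inhibitors, and 14 of 18 genes of that list were called higher and 1 lower (median 0.94). Zfp36, which destabilizes cytokine mRNAs, rose from 90.8, 79.9, 74.5 and 58.4 to 1890, 2280, 2435 and 1238, without overlap (4.64 ± 0.18, limma adjusted p = 2.72e-08). The nuclear IkB protein Nfkbiz (3.13), its relative Bcl3 (2.99), the deubiquitinase Tnfaip3 (1.54), and the adhesion molecule Icam1 (2.49) rose, as did the subunits Rel (1.37), Nfkb2 (1.53) and Rela (0.73). Ptgs2, encoding the inducible cyclooxygenase and in neurons an activity-regulated gene, moved the other way: 338, 432, 422 and 461 contralaterally against 217, 250, 220 and 267 ipsilaterally, with no overlap (-0.79 ± 0.12, limma adjusted p = 0.000511). Of 21 interferon-response and antigen-presentation genes 12 were called higher and none lower (median 0.53), led by Cd74 (2.23), the MHC class II invariant chain, Irf1 (1.89), Rsad2 (1.68) and Gbp2 (1.63). Without both libraries of the 6 h replicate 2 animal that count was 8.

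Immediate early genes rose for the most part, with exceptions. Of 28 tested, 22 were called higher and 2 lower (median 2.44). Fos, the AP-1 subunit used as a marker of recent activity, was 783, 1527, 764 and 432 contralaterally and 21433, 17051, 15149 and 7570 ipsilaterally. The lowest ipsilateral value, in 6 h replicate 2, still exceeded the highest contralateral one (4.17 ± 0.25, limma adjusted p = 1.21e-06). Npas4, a neuron-specific factor induced by calcium entry, was 145, 78.9, 93.4 and 63.8 against 1964, 1488, 1097 and 1999 (4.12 ± 0.23). Atf3, a stress-induced factor, was 23.2, 160, 114 and 38.5 against 3364, 4528, 5492 and 5351 (6.15 ± 0.47, limma adjusted p = 5.22e-06). Maff (4.49), Klf4 (4.36), Ier2 (3.67), Nr4a1 (3.26), Egr1 (3.12), Jun (2.43), Junb (2.40) and Arc (2.26) rose too.

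Egr3 and Homer1 went down although both are classed with the same activity-regulated genes. Egr3 was 2577, 3088, 1869 and 2303 contralaterally and 1244, 1061, 901 and 868 ipsilaterally, so the sides did not overlap (-1.26 ± 0.10, limma adjusted p = 4.69e-06). Homer1, a postsynaptic scaffold gene with an activity-induced short form that gene-level counts do not separate, was 3344, 4838, 4103 and 3460 against 2129, 1996, 1784 and 1943 (-0.99 ± 0.11). Bdnf, a neurotrophin that neuronal activity induces, was 1131, 1980, 1743 and 1545 against 674, 669, 476 and 643 (-1.36 ± 0.17, limma adjusted p = 0.000122). Inhba, an activin subunit also induced by activity, was 205, 367, 348 and 302 against 96.8, 104, 117 and 105 (-1.49 ± 0.17). Egr4, Nr4a2, Nr4a3 and Fosl2 were not called. Nr4a3 read 3029, 2733, 2663 and 2924 against 2871, 3086, 2770 and 2940, with full overlap, while its family member Nr4a1 went from 677, 782, 509 and 418 to 6820, 5907, 5730 and 4156. In WT the corresponding side effects were -1.22 for Egr3, -0.97 for Homer1, -1.76 for Bdnf, -1.59 for Inhba and 2.75 for Nr4a1.

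**Figure D2:**
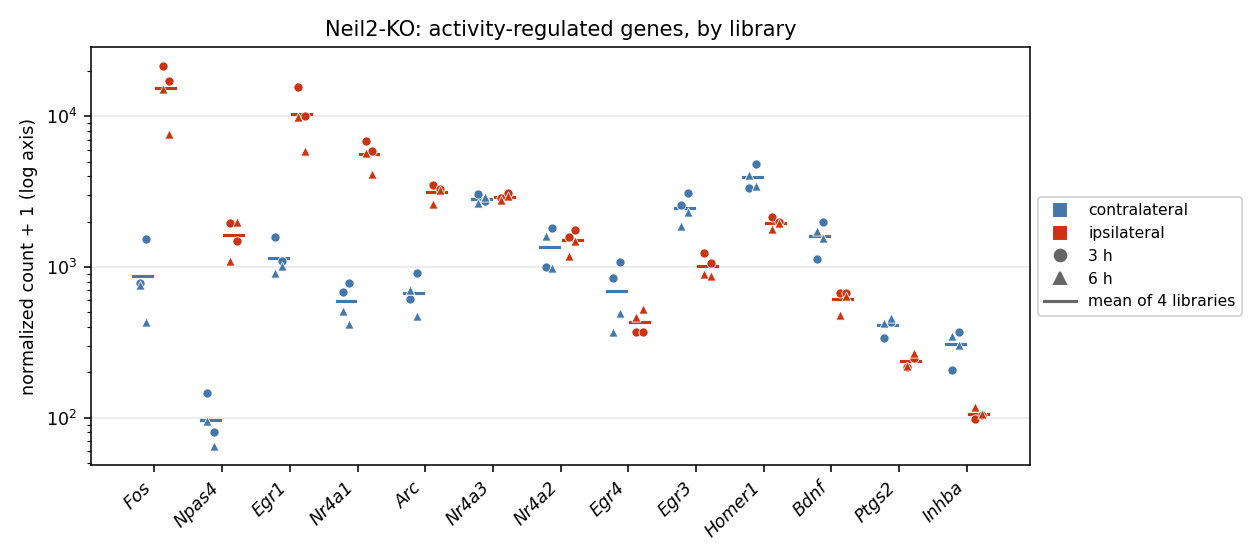
Normalized count + 1 (log axis) of 13 activity-regulated genes in the 8 Neil2-KO libraries, with circles for 3 h, triangles for 6 h and bars for the mean of 4 libraries. Fos, Npas4, Egr1, Nr4a1 and Arc are higher in every ipsilateral library, whereas Egr3, Homer1, Bdnf, Ptgs2 and Inhba are lower in every one, and Nr4a2, Nr4a3 and Egr4 overlap between the sides.

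The dual-specificity phosphatases, which switch off the MAP kinases that drive these genes, had 6 of 11 called higher and 1 lower (median 0.62). Dusp1 was 339, 289, 259 and 211 against 3483, 1793, 1937 and 1263 (2.86 ± 0.19, limma adjusted p = 2.17e-06), and Dusp16 (2.08), Dusp10 (2.02), Dusp2 (1.83), Dusp5 (1.59) and Dusp6 (0.62) rose. Dusp3 was lower by a small margin (-0.25).

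Heat shock genes rose, the inducible members most. Of 20 tested, 15 were called higher and 1, the Hsp110 relative Hspa4, lower (-0.34), with a median of 0.66. Hspa1b, an inducible HSP70 chaperone, was 437, 601, 398 and 541 contralaterally and 17484, 12234, 15219 and 11741 ipsilaterally. The ipsilateral values overlapped between 3 h and 6 h and lay far apart between sides (4.84 ± 0.15, limma adjusted p = 4.43e-09), with log2 fold changes of 4.83 at 3 h and 4.85 at 6 h. Hspa1a, a near-identical copy between which the authors' counting could have split reads, gave 4.80. Hspb1, a small heat shock protein that glia also produce, was 87.6, 204, 162 and 75.7 against 1490, 1581, 3069 and 1950 (3.98 ± 0.30). Bag3 (1.79), Dnajb1 (1.54), Cryab (1.34), Hsph1 (1.06) and the mitochondrial chaperones Hspe1 (0.89) and Hspd1 (0.68) rose, while constitutive Hsp90ab1 was not called (0.01).

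The bases upstream of the transcription start show what these genes share in sequence. Heat shock factors bind inverted repeats of GAA, searched here as GAANNTTC or TTCNNGAA on both strands in the 250 bases before the start, in RefSeq windows of GRCm38.p6. A match was present in 7 of the 11 called-higher heat shock genes with a window (63.6%) and in 14.5% of all 27025 windows. An NF-kB form, GGG and CC separated by 5 bases on either strand, was in 48.7% of all genes with a window. It was in 11 of 11 called-higher NF-kB genes, 10 of 11 called-higher heat shock genes and 4 of 6 called-higher chemokines with a window. It is shown for Cxcl10, whose window holds 3 matches, of which 2 overlap. The AP-1 form TGANTCA was in 7.82% of all genes with a window and in 0 of 18 called-higher immediate early genes with one. The CRE form TGACGTCA was in 1.77% and in 2 of 18. The windows below run 5′ to 3′ on the gene's strand, with capitals marking heat shock element matches only in Hspb1 and Hspa1b and NF-kB matches only in Cxcl10; matches of the other forms are not marked. Hspa1b lies at chr17:34959239-34959488 (minus strand), Hspb1 at chr5:135887669-135887918 (plus strand) and Cxcl10 at chr5:92348890-92349139 (minus strand). The Hspa1a window shares 247 of 250 bases with that of Hspa1b and is not printed. A match describes letters and is no evidence of binding.
Hspb1: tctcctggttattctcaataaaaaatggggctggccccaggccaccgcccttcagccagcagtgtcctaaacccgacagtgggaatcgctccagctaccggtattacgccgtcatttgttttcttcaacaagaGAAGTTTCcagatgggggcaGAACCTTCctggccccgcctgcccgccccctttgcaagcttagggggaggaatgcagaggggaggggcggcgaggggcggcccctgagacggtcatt
Hspa1b: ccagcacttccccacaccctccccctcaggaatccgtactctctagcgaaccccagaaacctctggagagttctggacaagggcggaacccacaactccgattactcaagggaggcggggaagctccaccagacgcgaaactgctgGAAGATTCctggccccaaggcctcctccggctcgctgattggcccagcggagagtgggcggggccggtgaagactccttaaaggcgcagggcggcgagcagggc
Cxcl10: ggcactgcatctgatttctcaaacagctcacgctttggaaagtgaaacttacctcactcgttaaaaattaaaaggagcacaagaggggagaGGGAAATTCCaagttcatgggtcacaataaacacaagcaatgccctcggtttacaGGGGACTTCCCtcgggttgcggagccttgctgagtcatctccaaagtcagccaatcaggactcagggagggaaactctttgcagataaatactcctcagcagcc

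Among genes induced by unfolded proteins and by the eIF2-Atf4 stress pathway, 16 of 22 were called higher and none lower (median 0.61). Gdf15, a secreted stress cytokine, went from 4.22, 1.07, 1.05 and 3.99 to 127, 147, 292 and 206 (5.83 ± 0.37, limma adjusted p = 1.51e-06). The sides were far apart and the summed reads rose from 9 to 915, a ratio of 77.7 (95% exact interval 40.7 to 170). Ddit3, encoding the pro-apoptotic factor CHOP, was 233, 221, 217 and 170 against 360, 528, 698 and 742 (1.42 ± 0.19). Hspa5, the main chaperone of the endoplasmic reticulum, was 6870, 5450, 6302 and 6081 against 10930, 13033, 16067 and 17258 (1.20 ± 0.11). Trib3 (2.08), Chac1 (1.82), Ppp1r15a (1.71), Cebpb (1.68) and Atf4 (1.24) rose, but Asns, a classic Atf4 target, was not called (-0.26). Without both libraries of the 6 h replicate 2 animal 11 were called.

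Genes of hypoxia and glycolysis split. Of 24 tested, 10 were called higher and 5 lower (median -0.01). Hmox1, the heme-degrading oxygenase, was 144, 175, 204 and 177 against 959, 1152, 1472 and 1402 (2.82 ± 0.11, limma adjusted p = 2.45e-08). Adm (1.87), the glucose transporter Slc2a1 (1.07), Egln3 (0.97), Vegfa (0.90) and Pfkfb3 (0.84) rose. Of the glycolytic enzymes, Hk1 (-0.51), Ldha (-0.28), Aldoa (-0.26) and Pgam1 (-0.26) fell, and Gapdh, Pgk1, Pkm and Eno1 were not called. Among 20 antioxidant and NRF2 genes 6 were called higher and 2 lower, against 13.1% higher and 15.5% lower over all genes. Hmox1, also in this list, Osgin1 (1.81), Txnip (1.22) and Nfe2l2 (0.89) rose, while the targets Nqo1 (-0.02) and Gclm (-0.04) were not called. Of 23 p53 and cell death genes 8 were called higher and 3 lower. Gadd45a (2.02), Mcl1 (1.03) and the death receptors Fas (2.61) and Tnfrsf10b (1.65) rose. The BH3-only genes Pmaip1 (1.39), Bcl2l11 (1.27) and Bbc3 (0.97) rose too, while Cdkn1a, a standard p53 target, was not called (0.18). Of 21 nuclear genes for oxidative phosphorylation 2 were called, fewer than the 28.6% over all genes. Both, Sdha (-0.23) and Uqcrc1 (-0.20), were lower, and neither was called by edgeR or with the sides of each animal paired.

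Neuronal transcripts were lower in most classes. Of 24 postsynaptic scaffold and adhesion genes 23 were called lower and none higher (median -0.85), against 15.5% lower over all genes. In bulk tissue fewer neurons and less RNA per neuron cannot be told apart. Grin2b, the NMDA receptor subunit of young synapses, was 14570, 12572, 12138 and 11896 contralaterally and 5307, 3871, 2854 and 2728 ipsilaterally. All 4 injured values lay well below the uninjured ones and the 6 h values were lowest (-1.84 ± 0.12, limma adjusted p = 2.15e-06, 3.59-fold lower). Camk2a, the kinase that couples NMDA receptors to plasticity, was 58635, 50832, 40296 and 51680 against 23797, 18375, 13318 and 16362 (-1.51 ± 0.12). Dlgap2 (-1.24), Nlgn1 (-1.12), Shank2 (-1.04) and Dlg4 (-0.73) fell, and Dlg1 was the 1 scaffold gene not called (0.05).

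Of 22 glutamate receptor genes 14 were called lower and 2 higher (median -0.39). The NMDA subunits Grin2a (-1.55) and Grin1 (-0.88), the metabotropic Grm5 (-0.89) and the AMPA subunits Gria1 (-0.69), Gria3 (-0.49) and Gria2 (-0.35) fell, in contrast to the kainate subunit Grik1 (0.73) and the NMDA subunit Grin2c (0.54), which rose. Presynaptic release genes had 17 of 20 called lower and none higher (median -0.47), led by the active-zone protein Bsn, 8902, 9658, 8198 and 8127 against 3675, 3432, 3150 and 3094 (-1.39 ± 0.07, limma adjusted p = 1.71e-07). Its sides were separated by more than the whole spread of either. The excitatory vesicular transporter Slc17a7 fell (-0.82), and Snap25 was not called (-0.11). On the inhibitory side 11 of 18 genes were called lower and none higher (median -0.51): the receptor subunits Gabrb1 (-1.10) and Gabra4 (-0.91) fell, but Gad1 (0.09), Gad2 (-0.11) and Slc32a1 (0.04), which mark the inhibitory neurons themselves, were not called.

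Ion channels followed the synaptic genes, with 23 of 27 potassium channel genes (median -0.71) and 17 of 20 sodium and calcium channel genes (median -0.57) called lower and none higher. Kcna1 (-1.24), Kcnj4 (-1.11), Kcnd2 (-1.07) and the M-current subunit Kcnq3 (-1.07) fell, as did Cacna2d1 (-1.07), Cacna1e (-1.06) and Scn8a (-0.86). Atp2b1, which pumps calcium out of neurons, was 20742, 18463, 19020 and 24137 against 10880, 8136, 5863 and 6653 (-1.42 ± 0.15).

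Pan-neuronal identity genes were lower too. Of 12 pan-neuronal markers 8 were called lower and none higher (median -0.41), with Map2 at -0.80, Tubb3 at -0.63 and the nuclear marker Rbfox3 at -0.61, and the summed level of the list ran from 156100 to 171700 contralaterally and from 105300 to 135000 ipsilaterally. All 12 markers of hippocampal subfields were called lower (median -0.62), and their sum fell from between 32250 and 37810 to between 18720 and 24910. Wfs1, a marker of CA1 pyramidal cells, was 2799, 3228, 2910 and 2651 against 1256, 1333, 1039 and 1174, with no overlap (-1.27 ± 0.08, limma adjusted p = 1.51e-06). The CA1 marker Fibcd1 (-1.13), the granule cell marker Dsp (-0.94) and the dentate factor Prox1 (-0.64) fell too, so markers of several fields were lower. Among 12 interneuron markers 3 were called, a share near the 28.6% over all genes: Cck (-0.75) and Kit (-0.40) lower and Reln (0.63) higher. Sst (0.35), Pvalb (0.19) and Vip (0.24) were not called.

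In 20 neurotrophin-related genes 5 were called higher and 8 lower. Apart from Bdnf, its receptor Ntrk2 (-0.34) and the neurotrophin-3 receptor Ntrk3 (-1.15) fell, whereas Gdnf (1.65), the low-affinity receptor Ngfr (1.10), Ret (0.71) and Nrg1 (0.63) rose. Gdnf counts were low and overlapped between sides: 7.39, 20.3, 16.8 and 6.64 against 20.1, 47.3, 43.8 and 50.2.

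**Figure D3:**
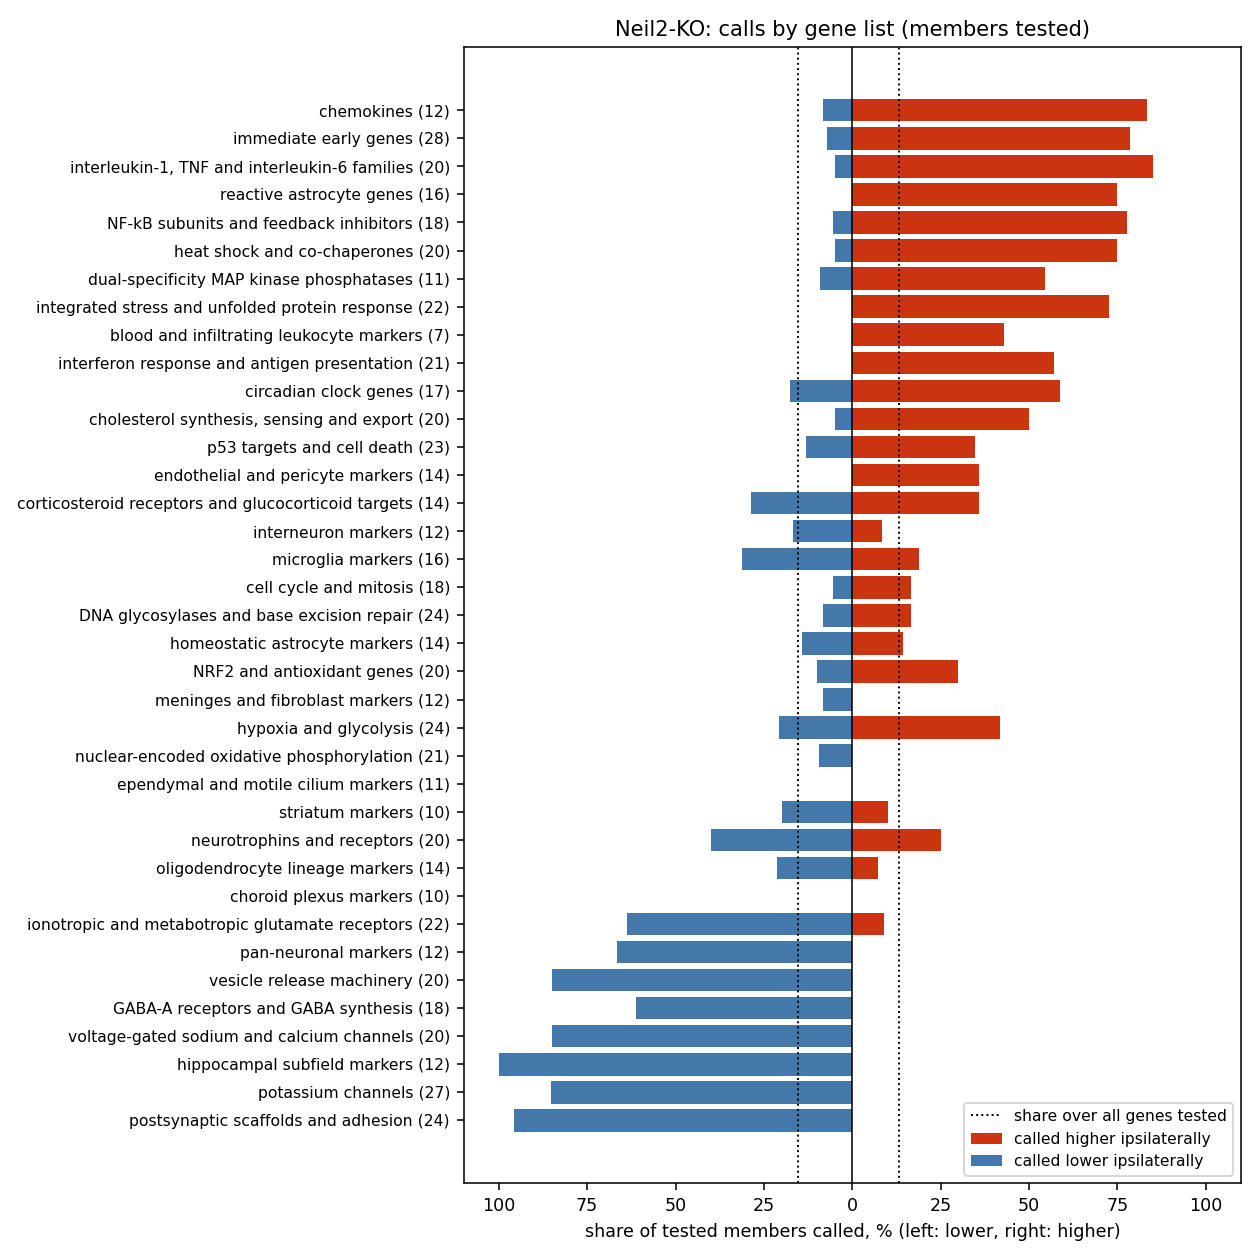
Share of the tested members of each of 37 gene lists called higher (right, red) or lower (left, blue) on the ipsilateral side in Neil2-KO; the number tested stands in parentheses and dotted lines give the shares over all genes, 13.1% and 15.5%. Chemokine, immediate early and cytokine lists lie at the top with mostly red bars, and postsynaptic, channel and subfield lists at the bottom with blue bars only.

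Microglial genes divided. Of 16 markers 5 were called lower, 3 higher and 8 not called (median 0.11), and their summed level ran from 6130 to 7286 contralaterally and from 6323 to 8241 ipsilaterally. Tmem119, a marker of resident microglia, was 315, 275, 173 and 230 against 108, 85.1, 30.2 and 14.3. Every ipsilateral value was below every contralateral one, and the 6 h values were the lowest (-2.40 ± 0.32, limma adjusted p = 0.000203, 5.28-fold lower). The purinergic receptor P2ry12, which senses ATP and guides processes, was 511, 409, 458 and 571 against 386, 214, 177 and 120 (-1.24 ± 0.25), and its relative P2ry13 gave -1.61 ± 0.25. Cx3cr1 (-0.78), Gpr34 (-0.72) and the identity factor Sall1 (-0.54) fell. In contrast the signalling adaptor Tyrobp (0.99) and the lectin Siglech (0.40) rose, and Csf1r, the growth factor receptor microglia depend on, read 1378, 1314, 1048 and 1233 against 1322, 1279, 1526 and 1022, with full overlap (0.04, not called). C1qa (0.03), Aif1 (0.18) and Trem2 (0.33) were not called.

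**Figure D4:**
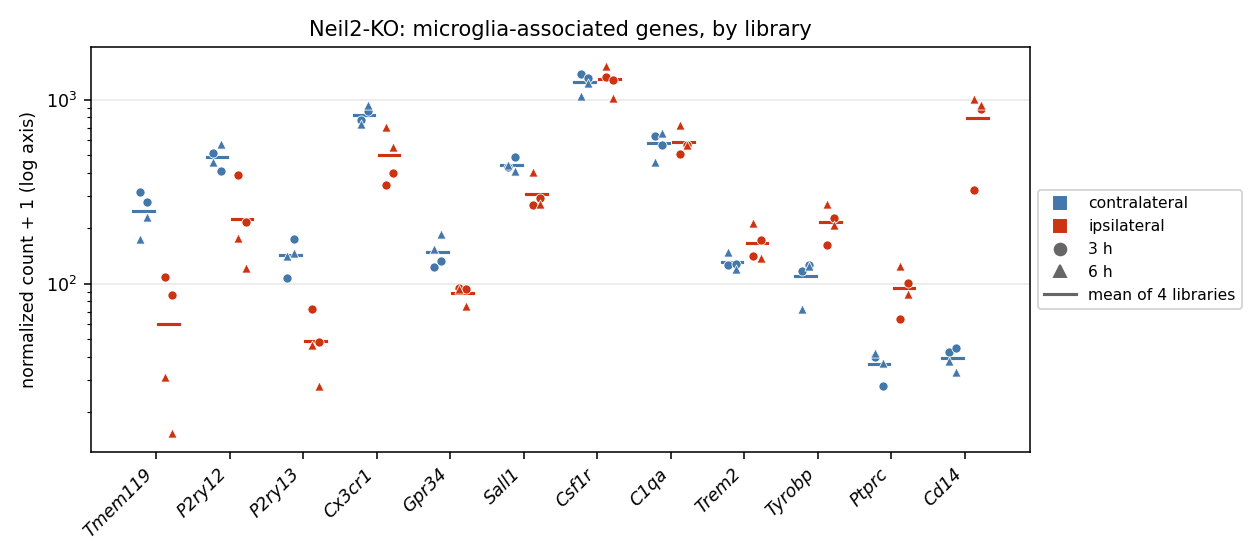
Normalized count + 1 (log axis) of 12 genes expressed by microglia in the 8 Neil2-KO libraries, with circles for 3 h, triangles for 6 h and bars for the mean of 4 libraries. Tmem119, P2ry12, P2ry13, Cx3cr1, Gpr34 and Sall1 are lower in every ipsilateral library, Csf1r and C1qa overlap, and Tyrobp, Ptprc and Cd14 are higher in every one.

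Genes of reactive astrocytes rose in 12 of 16 cases and none fell (median 1.18). Cd14, a lipopolysaccharide co-receptor that myeloid cells also express, was 41.2, 43.7, 36.7 and 31.9 against 322, 887, 1009 and 938 (4.21 ± 0.30), and Emp1, a membrane protein of reactive cells, was 154, 179, 246 and 190 against 614, 1678, 2414 and 3092 (3.13 ± 0.29). In both, ipsilateral 3 h replicate 1 was the lowest injured library. Timp1 (1.98), Steap4 (1.94), Vim (1.10) and Lcn2 (1.11) rose, and Gfap rose by a smaller margin with overlapping sides (0.55 ± 0.17, limma adjusted p = 0.0294). Without both libraries of the 6 h replicate 2 animal 8 of the 16 were called. Of 14 homeostatic astrocyte markers 2 were called higher and 2 lower, the same share as the 28.6% over all genes, so the list as such did not stand apart. The transcription factor Sox9 went from 686, 752, 531 and 721 to 1326, 1890, 2813 and 2071 (1.55 ± 0.18) and Aqp4 rose slightly (0.31), while the gap junction gene Gjb6 (-0.88) and Fgfr3 (-0.72) fell. The glutamate transporters Slc1a2 (0.02) and Slc1a3 (0.18) were not called.

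Endothelial and pericyte markers had 5 of 14 called higher and none lower, with Cdh5 at 1.33, Pecam1 at 1.03, Flt1 at 0.87 and Kdr at 0.75, and their sum was 10910 to 11560 contralaterally and 13580 to 16620 ipsilaterally. Of 14 blood and leukocyte markers 7 reached the tested range and 3 were called higher. Ptprc (1.35) is also a microglial gene, and S100a9 and Ccr2 had 10 and 13 reads contralaterally and 61 and 51 ipsilaterally. Ccr2 values overlapped between the sides. Oligodendrocyte markers had 1 of 14 called higher and 3 lower, again the 28.6% share of all genes, with Pdgfra, the marker of precursors, at -0.70. None of the 10 choroid plexus and none of the 11 ependymal genes tested was called by limma, and the choroid plexus sums, 2043 to 35400 contralaterally and 1657 to 33820 ipsilaterally, overlapped. Of the meningeal list Pdgfra alone was called, and of the 10 striatal markers 3 were, Tac1 (0.69) higher and Pde10a (-0.91) and Ppp1r1b (-0.83) lower, near the share over all genes.

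Base excision repair, the pathway of the deleted enzyme, gave few calls: of 24 genes 4 were called higher and 2 lower, a share near the 28.6% background. Neil1, a glycosylase for related oxidized bases, was 66.5, 90.6, 85.0 and 61.1 against 133, 129, 117 and 97.4, with no overlap (0.65 ± 0.17, limma adjusted p = 0.0123). The other genes called were the thymine glycosylase Mbd4 (0.63), the gap-filling polymerase Polb (0.51) and the ligase Lig1 (0.38), which rose, and the strand-break sensor Parp1 (-0.48) and the glycosylase Tdg (-0.36), which fell. Neil3 (0.25), Ogg1 (-0.08) and Nthl1 (0.15) were not called.

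Metabolic and hormonal lists are read against the 13.1% higher and 15.5% lower over all genes. Of 20 cholesterol genes 10 were called higher and 1 lower: Insig1, a sterol-regulated brake on cholesterol synthesis, went from 2012, 1966, 2072 and 2171 to 5173, 7021, 6706 and 6394 (1.61 ± 0.09, limma adjusted p = 7.80e-07), and Idi1 (1.14) and the exporter Abca1 (0.63) rose. Of 17 clock genes 10 were called higher and 3 lower, among them Ciart (1.95), Nfil3 (1.91), Bhlhe40 (1.67), Per1 (1.31) and Nr1d1 (1.27) upward and Npas2 (-0.68) downward, while Per2 was not called (0.16). Glucocorticoid targets were mixed, with 5 of 14 higher and 4 lower: Fkbp5 was 1967, 2143, 1643 and 1481 against 853, 1075, 864 and 846 (-0.98 ± 0.09), Klf9 gave -0.998 and the mineralocorticoid receptor Nr3c2 -0.97, while Pdk4 (1.27) and Errfi1 (0.86) rose. In the cell cycle list 3 of 18 were called higher and 1 lower, fewer than the 28.6% called over all genes, with Ccnd1 at 0.91 and the proliferation marker Mki67 not called (-0.06).

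Whether the side effect itself differed between 3 h and 6 h was tested in the same 8 libraries. By limma 0 of 18364 genes (0%) were called, with 2421 at an unadjusted p under 0.05 and a smallest adjusted p of 0.122. edgeR called 0, and DESeq2 called 211 of the 12311 genes it gave an adjusted p. In 135 of the 211 the log2 fold change, ipsilateral minus contralateral, was more positive at 6 h. Descriptively, 3837 of the 5247 called genes had the larger change at 6 h. The same share over all genes tested was not computed, so the count is not read as a result about the called genes. Tmem119 was -1.61 at 3 h and -3.20 at 6 h, Cd74 1.36 and 3.10, Tnf 2.85 and 5.01, and Adm 2.15 and 1.59. Their differences did not pass the limma test, which with 2 libraries a group does not show that the times act alike. With the 3 h libraries alone 2790 genes were called, 946 higher and 1844 lower. With the 6 h libraries alone 4182 were called, 2135 higher and 2047 lower. With 3 h alone, several lists gave fewer called higher: 10 of 20 cytokine family genes, 8 of 18 NF-kB genes, 4 of 21 interferon-response genes, 8 of 22 unfolded protein and eIF2-Atf4 stress genes, 4 of 16 reactive astrocyte genes, 6 of 20 cholesterol genes, and 0 of 20 neurotrophin genes. Fewer were also called lower among glutamate receptors (9 of 22), vesicle release genes (11 of 20), GABA genes (6 of 18), subfield markers (6 of 12) and hypoxia genes (1 of 24), whereas 6 of 14 oligodendrocyte markers were lower.

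The response was then set beside the other genotypes in a fit to all 24 libraries. By limma 0 genes (0%) were called for a difference in side effect between Neil2-KO and WT, with 976 at an unadjusted p under 0.05. Between Neil2-KO and labelled Neil1-KO 0 (0%) were called, with 1844 at that p, and edgeR called 0 in both. With 2 libraries a group, these counts do not show that the genotypes respond alike. DESeq2 called 1 against WT, Metap1d, and 3 against labelled Neil1-KO, Tmem119, Htr2c and Spsb1. Ttr read 35650, 174, 30930 and 27740 contralaterally and 83.3, 331, 310 and 259 ipsilaterally in WT. In labelled Neil1-KO it read 29290, 263, 193.5 and 154 against 3858, 74.0, 11310 and 19800. Xist was 10350 to 18160 in the replicate 2 libraries of labelled Neil1-KO at both times and 4.94 to 20.2 in WT. The part of Ttr-rich tissue or sex in the genotype comparisons was not tested. All 24 named genes with the largest changes were called in the same direction in WT, and 22 of 24 in labelled Neil1-KO, where the background called was 44.4% against 23.4% in WT and 29.7% for Neil2-KO in the same fit. Of the 5247 genes called in Neil2-KO, 3119 were called in the same direction in WT (59.4% of the Neil2-KO list and 72.7% of the WT list of 4291), and 1 in the opposite one. In labelled Neil1-KO 4388 were called in the same direction (83.6% of the Neil2-KO list and 53.8% of the labelled Neil1-KO list of 8153), and 2 in the opposite one.

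Tmem119 and P2ry13 were the 2 named genes not called in labelled Neil1-KO. Tmem119 there read 183, 159, 136 and 131 contralaterally and 166, 76.2, 83.2 and 216 ipsilaterally, so the sides overlapped (-0.29). The same ipsilateral libraries read 551, 205, 73.5 and 598 for P2ry12 and 515, 297, 395 and 1212 for Cx3cr1. The 2 libraries highest in Tmem119 were thus also the highest of these in both other microglial genes. In WT Tmem119 read 164, 210, 137 and 159 against 96.6, 80.6, 34.7 and 84.8, without overlap (-1.24). The Neil2-KO contralateral values, 173 to 315, included the highest of the series' contralateral values, and the Neil2-KO side effect exceeded that of labelled Neil1-KO by 2.23 (DESeq2 adjusted p = 0.00328) but not past the threshold by limma (adjusted p = 0.467). Metap1d, a mitochondrial methionine aminopeptidase, was 183, 169, 178 and 159 against 273, 247, 272 and 248 in Neil2-KO, where all ipsilateral values were higher, and 235, 240, 265 and 282 against 216, 232, 171 and 164 in WT, where all were lower. The difference between the side effects was 0.99 (DESeq2 adjusted p = 0.00519), with a limma adjusted p of 0.275. Metap1d was chosen after its values were seen.

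**Figure D5:**
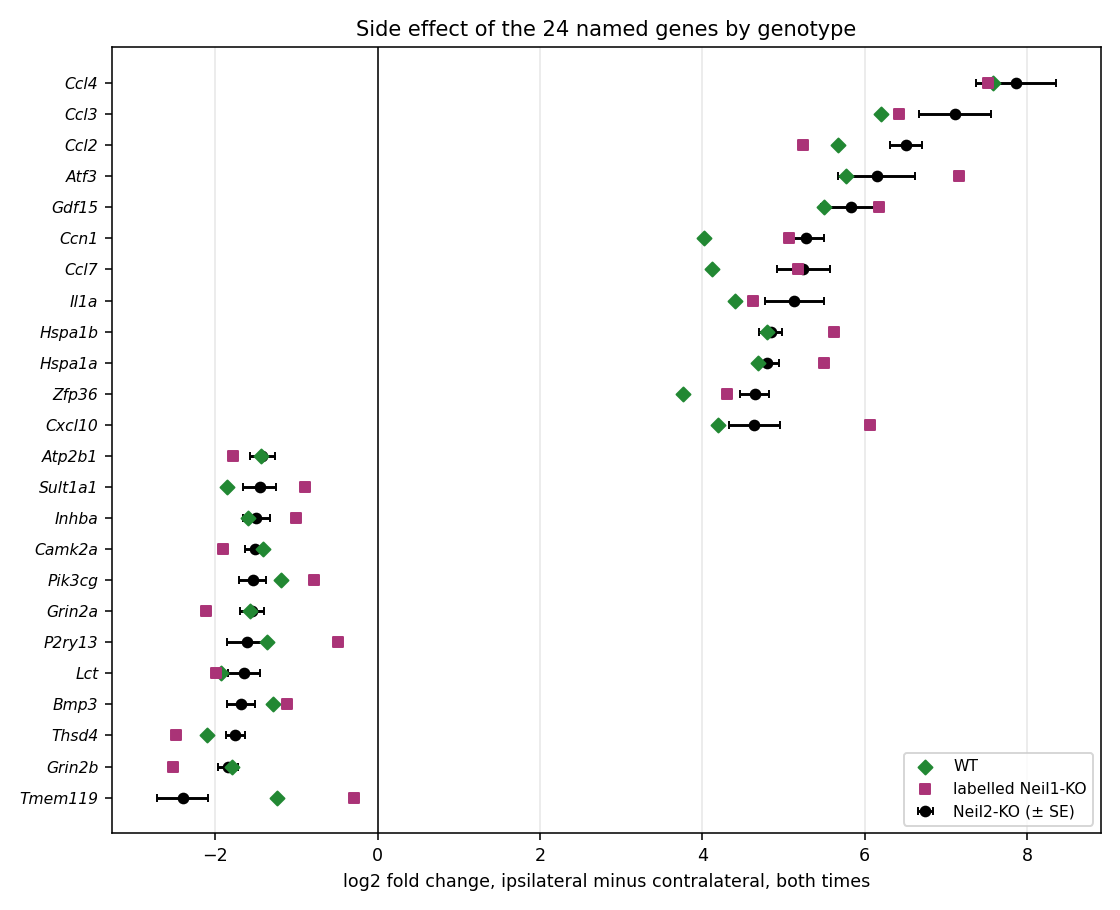
Log2 fold change (ipsilateral minus contralateral, both times) of the 24 named genes in Neil2-KO (black, bars are SE), WT (green diamonds) and labelled Neil1-KO (purple squares). All 3 genotypes have the same sign for all 24 genes, and Tmem119 has the widest gap among the genes that fell, from -2.40 in Neil2-KO to -0.29 in labelled Neil1-KO.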

How the data were processed

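Total RNA from the hippocampus of 24 samples was sequenced. The authors deposited 1 table of signal values, which are read counts divided by a size factor per library; per the submitters' processing notes, Trim Galore, HISAT2, SAMtools, featureCounts and DESeq2 were used with GRCm39 (mm39). Versions, settings and use of strand are not given in the sources used here, so overlapping antisense genes cannot be told apart. Whole reads were recovered from the deposited signal (100% of values within 1e-04 of a whole number of reads), and of 33084 lines 10770 without a gene name, 8.57% to 10.8% of Neil2-KO reads, were left out. No 2 Neil2-KO libraries were duplicates (highest correlation 0.9891).

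Genes reaching a value of 10 in 2 or more of all 24 libraries entered limma 3.58.1 (R 4.3.3) fits on log2(value + 1): side with time as a block in the 8 Neil2-KO libraries (5 residual degrees of freedom), side by time, and genotype differences over 24 libraries. edgeR 4.0.16 and DESeq2 1.42.0 on whole reads, other pseudocounts, filters and left-out libraries were alternatives. Same-numbered sides were taken as 1 animal, since the design text says both sides were collected from each replicate; their deviations correlated weakly (0.0537 at 3 h, 0.035 at 6 h). With 2 animals per time, p-values cover only the spread among those animals. Fits were tested on simulated data. Named genes were the 12 highest and 12 lowest changes among called genes with a mean of at least 50, 4 pairs of 1 sign, no overlap and no predicted-gene name, plus up to 4 members of each list with the smallest adjusted p; other list members are named for their known role. Members and gene lists were chosen with earlier results of these data known. Exact intervals and floors cover counting error only. Some list members are not reported here.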

Additional observations from a re-analysis of the deposited data

Results flagged for a closer look

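In 5 of 142 named called genes the side difference of 1 animal stood far from those of the other 3 (a gap over range above Dixon's 95% critical value for 4 values, which chance passes in about 1 in 20 groups). In the animal of 3 h replicate 1, Bmp3 differed by -1.04 against -1.97 to -1.82 in the others, Txnip by 0.583 against 1.39 to 1.5, Osgin1 by 2.63 against 1.46 to 1.59, and Mpped1 by -0.509 against -0.859 to -0.818. In the animal of 3 h replicate 2, Parp1 differed by -0.674 against -0.440 to -0.393. All 5 kept 1 sign in all 4 animals.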

How the results depend on the processing

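The count of genes called for side was 5247 and lay between 4704 and 5865 under another pseudocount, no filter, edgeR, DESeq2, the replicate block, 4 group means, all 24 libraries, and Ttr as a covariate, which was chosen after seeing the data (4871). By edgeR 2584 genes were higher and 2554 lower, and with 6 h alone 2135 and 2047, so decreases did not outnumber increases in every fit. With the replicate block, pairing the sides of each animal, the count was 4704, and Ccr2, Sdha and Uqcrc1 were the named genes lost. It ranged from 3912 to 5364 without 1 library and from 3578 to 4660 without 1 animal; with 3 h alone it was 2790. For side by time, where limma called 0 (also with the replicate block), DESeq2 called 211, the fit to all 24 libraries 2 (Abtb2 and Akna), and leaving out 1 library gave 0 to 5, the 5 without contralateral 6 h replicate 1 (Shc3, Gadd45g, Gse1, Soga1 and Hipk2). For genotype, DESeq2 called 1 against WT and 3 against labelled Neil1-KO, and every other alternative 0. The causes were not tested. No called direction of a named gene reversed under any alternative run, and the other called genes were not checked for this. Of the 142 called named genes 121 were called under every alternative run. Depth limits the size of the change where contralateral reads were few: 0 for Cxcl2, 3 for Il6 and Il1rn, 6 for Il1b and Tnf, 9 for Ccl4, Gdf15 and Ccl7, 10 for S100a9, 11 for Ccl2, 13 for Ccr2 and 14 for Ccl3.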

Other observations

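Genes with longer spans were more often called lower. Genes were put in 5 equal groups by genomic span (GENCODE vM21, available for 97.5% of genes tested). In the group with the longest spans, 65.8 to 2960 kb, 31.6% were called lower and 11.3% higher, with a median log2 fold change of -0.10. In the shortest group, up to 4.46 kb, 5.25% were called lower and 8.32% higher, the smallest shares in both directions, with a median of 0.04. In the groups between, from shorter to longer, 10.6%, 12.7% and 18.0% were called lower and 15.9%, 15.3% and 15.3% higher. Their medians were 0.049, 0.031 and 0.0006, so only the longest group had a negative median. The longest group had medians of -0.13 in WT and -0.20 in labelled Neil1-KO. Many synaptic and channel genes have long spans, and whether span or gene class goes with the decrease was not tested.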
